A study of Homo sapiens with 42 samples.

Results

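The 68 replication-dependent histone genes of human chromosomes 1 and 6 were examined in ATAC-seq peak lists of 7 cancer cell lines. They were chosen by name from the 19970 protein-coding genes of the RefSeq GRCh38.p14 table used here: every gene called H2AC, H2BC, H3C or H4C followed by a number, and H1-1 to H1-6. The rule uses no measured value, but earlier results of these data were known when the set was chosen. The set holds 6 H1, 17 H2A, 18 H2B, 13 H3 and 14 H4 genes. ATAC-seq uses a transposase to cut DNA that nucleosomes and other proteins leave open, so that reads pile up into peaks at accessible promoters and enhancers. The lines, all labelled WT for genotype, were the uveal melanoma line 92-1, the melanoma line A375, 22RV1 from a prostate adenocarcinoma, HCT116 from a colorectal adenocarcinoma, DU4475 from an invasive breast carcinoma, the rhabdomyosarcoma line RD and the acute myeloid leukaemia line MV411. Cultures of every line received FHT-1015, which blocks both SMARCA4 and SMARCA2, or DMSO for 4 h. With 3 biological replicates per group there were 14 groups and 42 samples. SMARCA4 and SMARCA2 are the alternative ATPases of the BAF complexes, which slide and evict nucleosomes. Each line is a single cell population, so its replicates stand for that line and not for other tumours of its kind. The labels call the replicates biological without saying how they were separated, so p-values measure the spread between these samples, part of which may be technical.

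Replication-dependent histone genes supply the H2A, H2B, H3, H4 and linker H1 proteins that package newly made DNA, and they are transcribed mainly in S phase. Most lie in a few tight clusters, carry no introns, and give messenger RNAs that end in a stem-loop in place of a poly(A) tail. The clusters are gathered in nuclear bodies, the histone locus bodies, where NPAT and the CDK2 kinase drive their transcription. Many copies encode the same or nearly the same protein, so each family has many promoters that can be open or closed on their own.

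A separate list of peaks was deposited for every sample, with 114291 to 431956 peaks (median 222366), down to very weak ones. The lists hold no read counts, so sequencing depth is unknown. A strict peak had a −log10 q of at least 5, and a list held 1412 to 121774 of them (median 41745). The 2 shortest lists of strict peaks belonged to replicates 2 and 3 of 92-1 with FHT-1015 (2037 and 1412), so counts of strict peaks in that line rest on very few peaks. A peak was given to a gene when its summit lay within 1 kb of either end of the gene. In every sample each gene took the −log10 p of its strongest peak, and the 19970 genes were ranked on it from 0 (weakest) to 100 (strongest). This gene percentile is a rank within a sample and not an amount of open DNA. A peak averages the cells of a culture, so fewer cells with an open promoter and a less open promoter in each cell cannot be told apart. Genes without any peak shared the lowest rank, which lay between 8.4 and 23.0 depending on the sample, as the values of H1-1 and H4C7 show. Marker genes of the labelled tissue had a strict DMSO peak in at least 1 sample of their line in 5 of 5 cases in RD, DU4475 and MV411, 4 of 5 in 22RV1 (KLK3 had none), 4 of 6 in 92-1 (SOX10 and DCT had none), 4 of 6 in A375 (TYR and DCT had none) and 3 of 5 in HCT116 (CDX1 and VIL1 had none).

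Promoter sequences in RefSeq (GRCh38.p14; 250 bases before to 50 after the gene start) were matched by symbol for 63 of the 68 genes. Of the genes chosen, H2AC20 had a gene percentile that was called higher under FHT-1015. H1-2 and H3C2 are an H1 and an H3 gene with a deposited peak within 1 kb of a gene end in all 42 samples. H4C14 and H4C7 are the H4 genes with the highest and the lowest mean gene percentile with DMSO. The promoters of these 5 genes are printed here. They run 5′ to 3′ on the strand of the gene, and capitals mark every match on either strand to CCAAT (the CCAAT box), TATAAA (the TATA box), ATTTGCAT (the octamer bound by POU2F1), GGTCCG (the core of the H4 element), AAACACA (the H1 box) and TTTGGCGC (an E2F site). H2AC20 lies at chr1:149886668-149886967 (plus strand), H1-2 at chr6:26056421-26056720 (minus), H3C2 at chr6:26032050-26032349 (minus), H4C14 at chr1:149832407-149832706 (plus) and H4C7 at chr6:26246947-26247246 (minus).
H2AC20: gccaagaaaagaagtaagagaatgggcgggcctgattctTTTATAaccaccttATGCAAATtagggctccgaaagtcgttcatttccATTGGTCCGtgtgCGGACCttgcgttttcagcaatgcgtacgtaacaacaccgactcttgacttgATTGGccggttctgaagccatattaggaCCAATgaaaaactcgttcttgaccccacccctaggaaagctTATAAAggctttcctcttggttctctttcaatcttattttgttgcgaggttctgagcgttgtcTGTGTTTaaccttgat
H1-2: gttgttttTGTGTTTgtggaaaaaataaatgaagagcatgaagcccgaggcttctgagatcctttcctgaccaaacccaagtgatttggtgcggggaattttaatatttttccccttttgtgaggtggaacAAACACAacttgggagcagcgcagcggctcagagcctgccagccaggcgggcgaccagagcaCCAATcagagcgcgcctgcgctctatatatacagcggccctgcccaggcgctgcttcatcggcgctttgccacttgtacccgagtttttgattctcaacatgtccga
H3C2: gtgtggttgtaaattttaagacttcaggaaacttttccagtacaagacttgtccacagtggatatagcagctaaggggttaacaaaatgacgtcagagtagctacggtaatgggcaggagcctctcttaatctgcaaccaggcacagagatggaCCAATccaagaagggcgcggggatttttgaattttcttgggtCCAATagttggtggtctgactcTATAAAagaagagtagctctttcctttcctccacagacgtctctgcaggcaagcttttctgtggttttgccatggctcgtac
H4C14: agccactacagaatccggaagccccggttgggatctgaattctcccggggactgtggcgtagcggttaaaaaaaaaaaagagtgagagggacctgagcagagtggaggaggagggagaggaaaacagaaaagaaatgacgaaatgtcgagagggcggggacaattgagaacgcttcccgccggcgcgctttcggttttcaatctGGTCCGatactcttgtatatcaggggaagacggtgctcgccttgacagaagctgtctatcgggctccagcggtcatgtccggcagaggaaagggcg
H4C7: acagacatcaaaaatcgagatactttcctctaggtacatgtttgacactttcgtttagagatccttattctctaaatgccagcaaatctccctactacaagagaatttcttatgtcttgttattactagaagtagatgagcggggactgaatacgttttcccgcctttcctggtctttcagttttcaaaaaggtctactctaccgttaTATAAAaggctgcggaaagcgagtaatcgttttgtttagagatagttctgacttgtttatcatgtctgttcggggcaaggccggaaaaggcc

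The families differed in the letters their promoters hold. CCAAT was found in all 6 H1, 16 H2A, 18 H2B and 11 H3 promoters but in 3 of 12 H4 promoters, against 36.3% of 15811 protein-coding promoters of the same length. TATAAA was found in 41 of 63 histone promoters, against 9.64% of all. The octamer ATTTGCAT was in 14 of 18 H2B and 11 of 16 H2A promoters, in 1 of 11 H3 promoters and in no H1 or H4 promoter, against 1.70% of all. GGTCCG was in 11 of 12 H4 promoters (14.5% of all), and AAACACA was in all 6 H1 promoters (4.25% of all). TTTGGCGC was in none of the 63, against 0.892% of all. Some octamer matches are counted for an H2A and an H2B gene at once, because the promoters of divergent pairs overlap. These are matches of letters only. In the H2AC20 promoter shown above, the TATA box on the gene's strand began at base -29 and the octamer, on the opposite strand, at base -197. The H4C14 promoter held GGTCCG at base -46 and no CCAAT. H4C7, in contrast, lacked GGTCCG. In the 13 promoters of genes with a strict peak in at most 6 of 21 DMSO samples, CCAAT was found in 12, TATAAA in 7 and the octamer in 6, against 26, 20 and 10 of the 28 promoters of genes with one in at least 18.

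Open chromatin at histone genes sat mostly just upstream of the gene start. H4 genes had median summits on both sides of it, such as -151 bp at H4C14 and 72.5 bp at H4C11. Among 875 strict strongest peaks of the 63 stranded genes in the 21 DMSO samples, 75.5% had the summit within 300 bp of the start, 65.5% upstream and 10.1% downstream of it, and the median summit lay at -101 bp. Of the 61 genes with any such peak, 49 had their median summit within 300 bp of the start. The 11 divergent H2A and H2B pairs, whose starts are 193 to 247 bp apart, had the same strongest peak for both genes in 395 of the 408 pair-samples with a peak at both (96.8%), so their values are not separate measurements. A shared peak enters the summit shares above for both genes of a pair. For several genes the strongest peak within reach was that of a neighbour. H2AC20 and H2AC21 had the same gene percentile in each group, because 2 peaks lie within reach of both and each gene takes the stronger. In 37 of the 42 samples that was the peak between H2BC21 and H2AC20, more than 1 kb from the start of H2AC21, and in 5 it was a peak by the start of H2AC21: replicate 3 of 92-1 with DMSO, replicate 1 of 92-1 with FHT-1015, replicates 1 and 2 of MV411 with DMSO and replicate 2 of MV411 with FHT-1015. H3C1 took a peak 1048 bp from its start, H1-4 one at 1622.5 bp and H2AC4 one at 1411.5 bp. H2BC5, whose annotated gene is long, took in most samples a peak near its far end (median 13830.5 bp from its start). H3C13 took a peak at 1213.5 bp, and it shared its DMSO values with H2BC18.

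**Figure D1:**
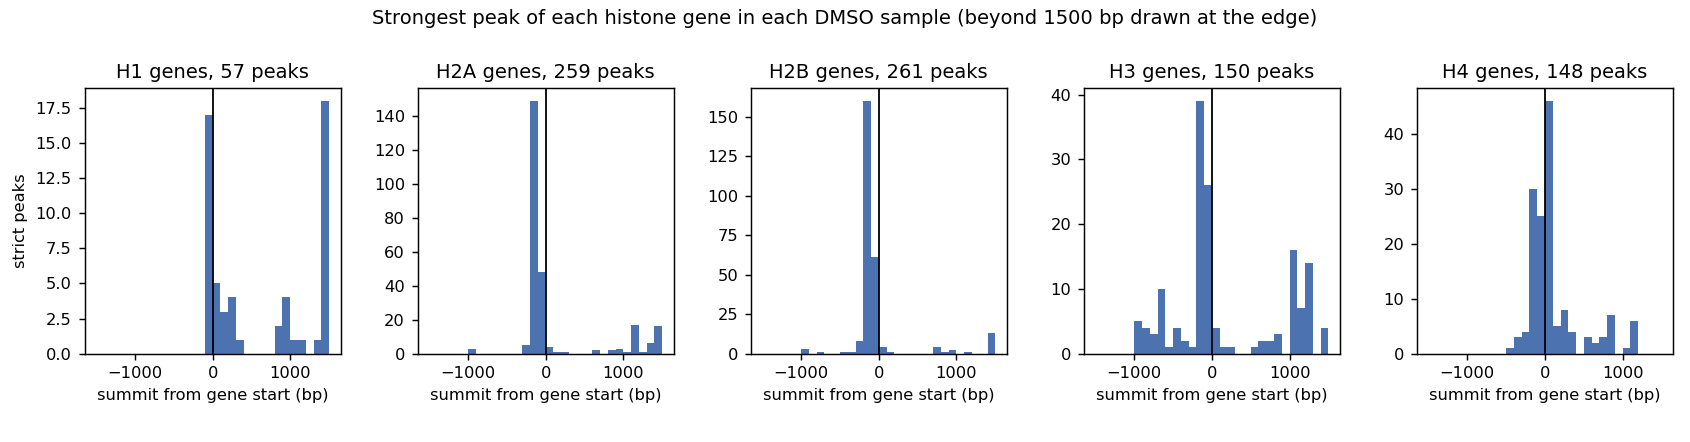
Histograms of the distance (bp, negative is upstream) from the gene start to the summit of the strongest strict peak, with 1 count for each gene and DMSO sample, drawn for each histone family with values beyond 1500 bp put at the edge. Most H2A and H2B peaks stand just left of 0, and the groups of peaks near 1000 to 1500 bp in H1, H2A and H3 genes are those of neighbouring promoters.

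With DMSO, a strict peak was found in 66.1% of the gene-samples of the 68 genes, against 54.0% over all genes, 84.4% over 78 cytosolic ribosomal protein genes and 11.0% over 463 other protein-coding genes shorter than 1000 bp. The order of the histone and all-gene shares was not the same everywhere: it was 37.7% against 46.2% in HCT116 and 36.8% against 37.0% in 92-1. Among the 10000 strongest peaks of a DMSO sample the median share was 14.7% of histone genes and 26.6% of all genes. The number of histone genes with a strict peak ranged from 7 to 62 over the 21 DMSO samples (median 50). Of the 68 genes, 30 were mostly open (a strict peak in at least 18 of 21 DMSO samples), 24 were mixed and 14 were rarely open (at most 6 of 21). A deposited peak of any strength was present in all 42 samples at 22 genes, a strict peak in all 42 samples at none, and H1-6 and H4C7 had a strict peak in none.

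The position in the genome went with these levels. All 11 genes of the cluster at chr1:149782689-149887965 were mostly open, with a median gene percentile of 72.2, and so were both genes of the small chr1:228457364-228458558 pair (H2AC25 and H2BC26, 80.6). Some of the 11, such as H3C13 and H2AC21, took a neighbour's peak in most DMSO samples, so they are not 11 separate open promoters. Of the 32 genes of the largest cluster, chr6:26017032-26285534, 9 were mostly open and 9 rarely open (median 46.3). Of the 16 genes at chr6:27807479-27893891, 4 were mostly and 3 rarely open (49.4), and of the 5 genes at chr6:27132316-27147562, 4 were mostly open (65.5). The pair H2AC1 and H2BC1 at chr6:25726063-25727345 was rarely open (22.8). The chromosome 1 cluster holds near-identical duplicated copies (H3C14 and H3C15, H4C14 and H4C15, H2AC18 and H2AC19), between which reads may be split or lost in alignment, so values of single copies are uncertain. In the largest chromosome 6 cluster, 526 of the 568 strict DMSO peaks counted over the 21 samples lay at gene ends and 42 lay between genes. In the chr6:27807479-27893891 cluster the corresponding numbers were 172 of 176 and 4.

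H2A had the highest family median (62.1), followed by H2B (57.9), H4 (50.9), H3 (41.5) and H1 (33.9), on the scale of mean gene percentile with DMSO. The spread inside each family was wider than the gaps between families: H2A genes ran from 22.7 (H2AC1) to 79.8 (H2AC25), H2B genes from 23.0 (H2BC1) to 81.4 (H2BC26), H3 genes from 23.6 (H3C8) to 72.2 (H3C13), H4 genes from 14.7 (H4C7) to 70.9 (H4C14) and H1 genes from 13.9 (H1-6) to 65.3 (H1-4). H2AC25 and H2BC26 are a divergent H2A and H2B pair that shares its peak. The H3C13 value is that of a peak at a median of 1213.5 bp from its start, with the same DMSO values as its neighbour H2BC18. It is therefore not a measure of the H3C13 promoter. H1-4 is one of the main somatic linker histones, and its strongest peak was in most samples the one by the start of its neighbour H2BC5. H1-6, H2AC1 and H2BC1 encode the testis-specific H1t, H2A and H2B proteins. H1-6 had a deposited peak in 3 of 42 samples and H4C7 in 4 of 42, all of them weak.

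**Figure D2:**
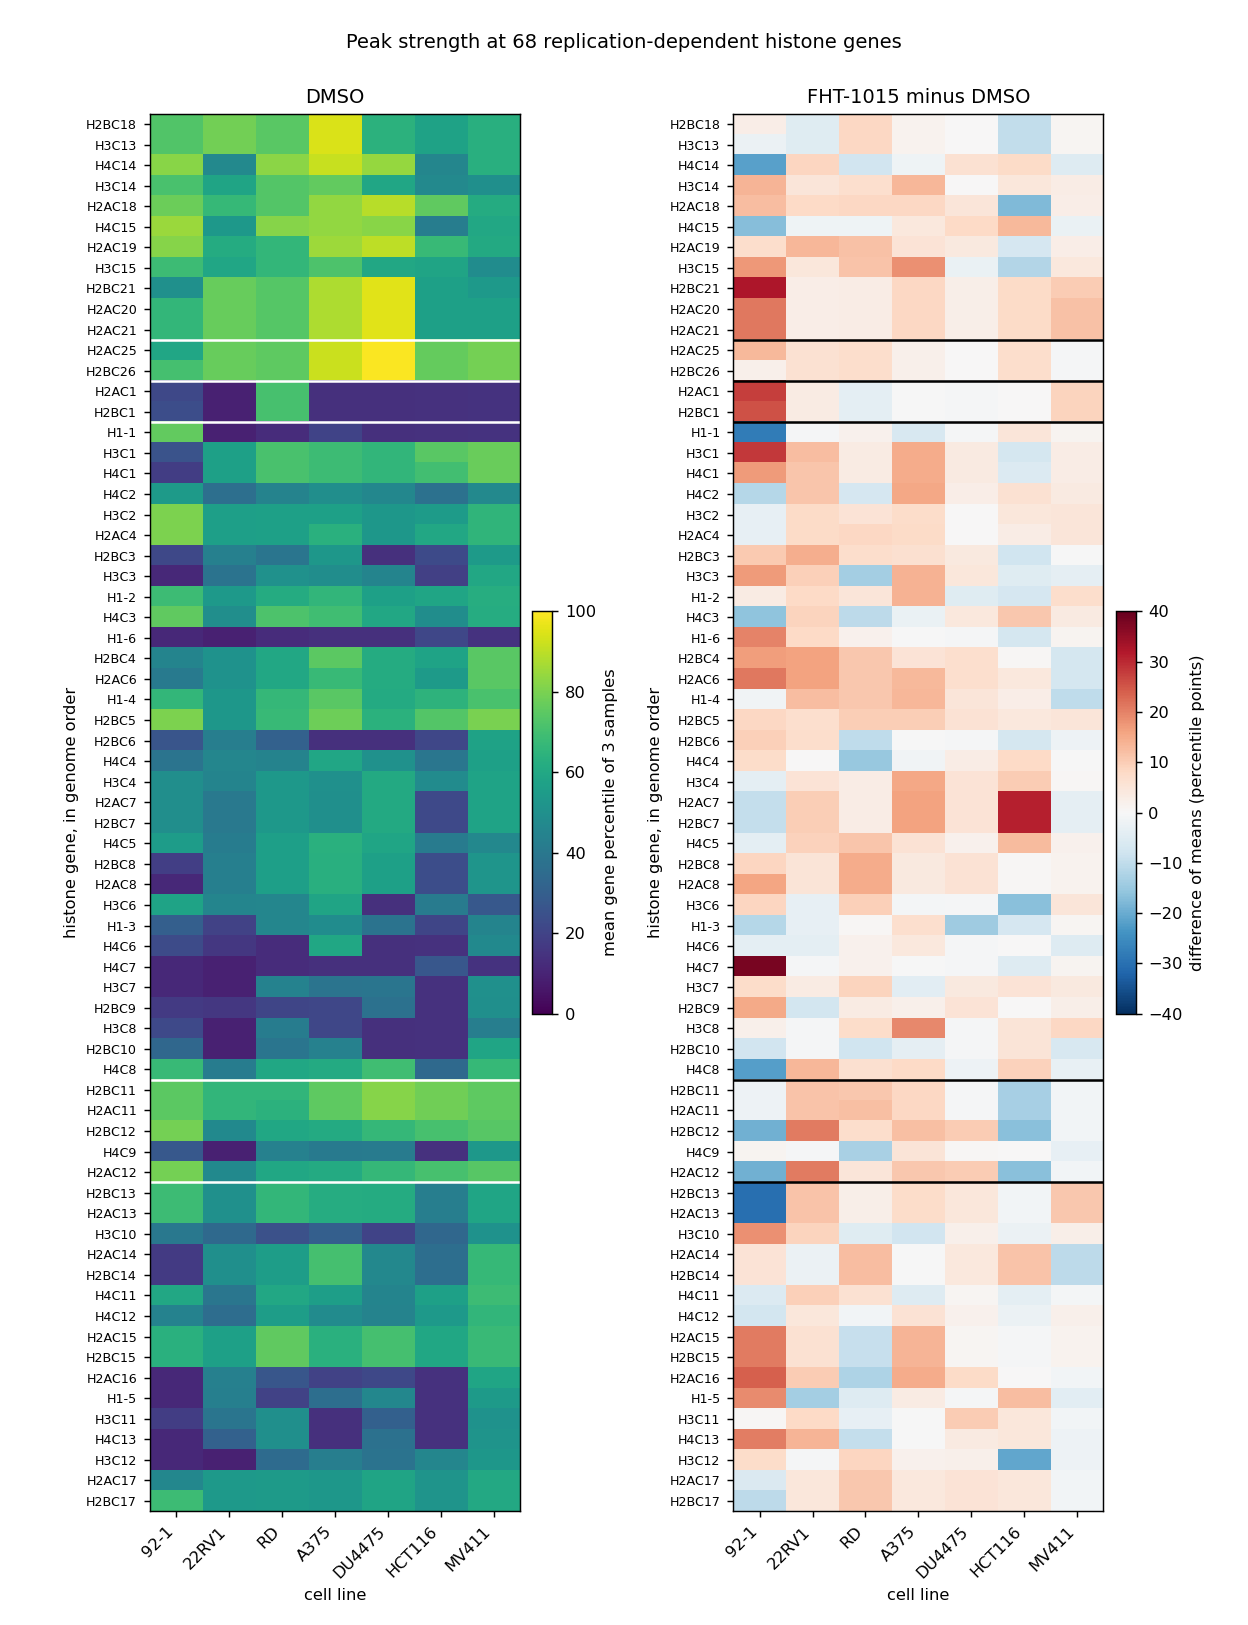
Left, mean gene percentile (0 to 100) of 3 DMSO samples for the 68 histone genes in genome order (rows) and 7 lines (columns). Right, FHT-1015 minus DMSO in percentile points. Lines across the maps separate the 6 clusters. The chromosome 1 genes at the top are bright in most lines, rows such as H1-6 and H4C7 are dark in all DMSO groups, and H1-1 is bright in 92-1 only.

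Lines differed in which histone genes were open with DMSO. The mean gene percentile differed among the 7 lines at 47 of 68 genes (limma, Benjamini-Hochberg adjusted p below 0.05 over all genes), which is 69.1% against 61.6% of all genes. MV411 had the highest DMSO mean at 20 of the 68 genes, A375 at 16, 92-1 and DU4475 at 13 each, RD at 4, HCT116 at 2 and 22RV1 at none. The line also sets the kind of peak list, since the peak names of 4 lines (92-1, 22RV1, HCT116 and MV411) carry the word small and those of the other 3 do not, and no source used here says what the word means.

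H1-1, an S-phase linker histone, had the widest range over lines. Its DMSO percentiles in 92-1 were 74.5, 76.6 and 77.0, and in the other 18 DMSO samples they lay between 8.5 and 33.7. The 92-1 samples stood apart from those of every other line, and the deposited fold enrichment of the peak was 11.1, 7.27 and 5.63 there, with no peak in 17 of the other 18. The range of line means was 66.7 percentile points (adjusted p = 5.3e-08 in limma).
The testis pair H2AC1 and H2BC1 had DMSO percentiles of 69.5, 59.9 and 83.6 in RD and at most 30.5 in any other line for H2AC1. RD was the line with an open pair, and H2AC1 had strict peaks in 3 of 21 DMSO samples, all in RD. The range of line means was 61.7 points (adjusted p = 2.3e-06 for H2AC1 and 3.2e-06 for H2BC1 in limma).
H4C1 had its highest DMSO mean in MV411 (77.1) and its lowest in 92-1 (18.1), a range of 59.0 points (adjusted p = 1.8e-05 in limma). H2AC14 and H2BC14, a divergent pair, ranged from 17.2 in 92-1 to 70.5 in A375 (53.4 points, adjusted p = 3.0e-06 in limma). The 3 A375 samples of H2AC14 had 69.8, 77.1 and 64.8, and MV411 followed with 75.3, 59.1 and 66.6, so these 2 lines overlap.

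After 4 h of FHT-1015, no histone gene was called as having lost or gained a strict peak. For 22RV1, 50.7 ± 4.16 genes had a strict peak with DMSO and 52.0 ± 2.00 with FHT-1015 (mean ± SD, n = 3 each). The corresponding values were 62.0 ± 0 and 61.3 ± 0.577 in MV411, 50.3 ± 2.52 and 50.7 ± 2.52 in DU4475, 48.0 ± 8.72 and 50.0 ± 4.36 in A375, and 25.7 ± 5.86 and 28.0 ± 7.81 in HCT116. They were 53.0 ± 3.00 and 40.3 ± 11.2 in RD and 25.0 ± 15.7 and 12.7 ± 17.0 in 92-1. The DMSO and FHT-1015 samples overlapped in all 7 lines. In an exact stratified test of calls over the lines, no histone gene had fewer or more FHT-1015 samples with a strict peak at an adjusted p below 0.05, and none of the 68 did at an unadjusted p below 0.05. Over all genes the same test gave 0 adjusted calls, and at an unadjusted p below 0.05 it gave fewer samples for 4.38% of genes and more for 0.0451%.

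More histone genes were among the 10000 strongest peaks of a list with FHT-1015 than with DMSO in 6 of the 7 lines. This cut-off has the same length in every list. The counts with DMSO and then with FHT-1015 were 10, 5 and 4 against 18, 21 and 17 in 92-1. They were 2, 7 and 7 against 16, 19 and 17 in 22RV1. In RD they were 12, 17 and 14 against 24, 23 and 27.
All FHT-1015 samples of these 3 lines were above all DMSO samples of the same line. The counts were 13, 17 and 16 against 27, 34 and 25 in A375. They were 15, 14 and 18 against 25, 27 and 21 in DU4475. MV411 had 0, 1 and 0 against 18, 9 and 9, and HCT116 had 8, 12 and 6 against 5, 12 and 9.
HCT116 was the only line whose groups overlapped. The mean difference over the 7 lines was 9.76 genes, or 14.4 percentage points of the 68 genes, with the groups apart in 6 of 7 lines. It was 9.33 without 92-1, where 2 of the FHT-1015 lists have fewer than 10000 strict peaks. It was 3.33 among the 5000 strongest peaks and 11.9 among the 20000 strongest, each with the groups apart in 3 of 7 lines. For genes at or above the percentile of 75 it was 3.90, also apart in 3 of 7 lines. With only summits within 300 bp of the start of a stranded gene it was 7 genes, apart in 4 of 7 lines. It was 5.48 when peaks shared by neighbours were counted once.

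The same count was higher for other genes as well. Over all 19970 genes, the share with one of the 10000 strongest peaks was 4.90 percentage points higher with FHT-1015 on average, higher in 7 of 7 lines and apart in 6. It was 17.9 points higher for the 78 ribosomal protein genes and 0.813 points higher for the 463 other short genes. With the 5000 strongest peaks the share over all genes was 3.07 points higher, apart in 6 lines, beside 3.33 of the 68 histone genes. With the 20000 strongest it was 4.16 points higher, apart in 5 lines. With summits within 300 bp of the start it was 4.63 points higher over stranded genes, apart in 6. How far histone genes exceeded all genes thus depended on the cut-off. The difference between lists was not tested, since the members of a list are not replicates. Lists with FHT-1015 also held fewer strict peaks over the whole genome. The mean number per list after treatment was 0.472 times that with DMSO in MV411, 0.465 in RD, 0.593 in 22RV1 and 0.740 in DU4475, each with groups apart. The ratio was 0.224 in 92-1, 0.832 in A375 and 0.946 in HCT116, where the groups overlapped. Fewer competing peaks elsewhere and stronger peaks at histone genes cannot be told apart from a rank.

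**Figure D3:**
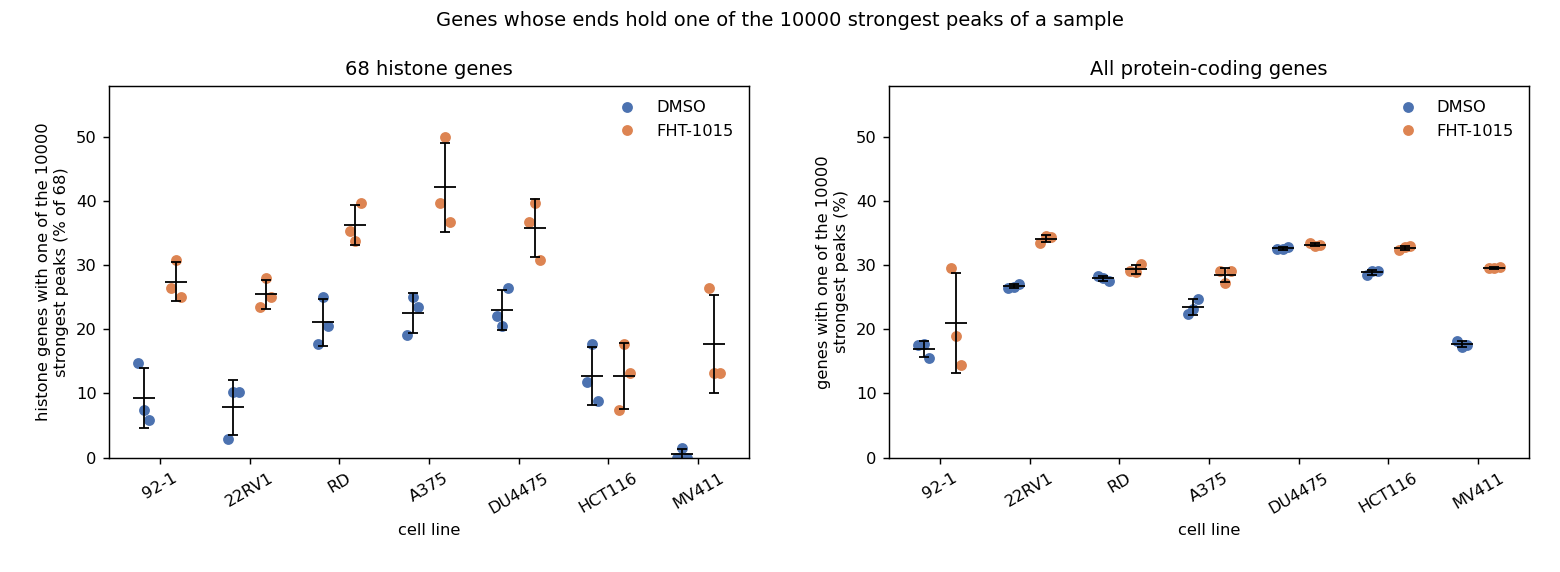
Share of genes (%) with one of the 10000 strongest peaks of a sample, for the 68 histone genes (left) and for all 19970 protein-coding genes (right), by line. Points are samples, and bars are the mean ± SD of 3 samples. Histone shares with FHT-1015 lie above those with DMSO in every line but HCT116, and MV411 starts from 0 to 1 of 68 genes.

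Of the 68 genes, 46 were among the 10000 strongest peaks in more FHT-1015 than DMSO samples and 1 (H4C14, 11 against 9) in fewer, against 38.5% and 14.1% of all genes. In the exact stratified test, 13 had more FHT-1015 samples at an unadjusted p below 0.05, against 6.92% of all genes, 0 had fewer, against 0.546%, and none passed adjustment over all genes. No gene of the genome passed it either. The genes named next were chosen after their values were seen. H3C1 and H4C1, which share a peak, were among them in 5 of 21 DMSO and 16 of 21 FHT-1015 samples (exact p = 0.00058, adjusted p = 0.136). H2BC5 was among them in 7 and 18 samples (exact p = 0.0007, adjusted 0.149), H2AC25 and H2BC26 in 13 and 20 (0.005, adjusted 0.246) and H3C15 in 1 and 9 (0.002, adjusted 0.185). The H2BC5 count takes in the peak near the far end of that gene, so it is not a count of its promoter alone. H1-2, whose promoter is printed above, was among them in 0 and 7 samples (0.00625, adjusted 0.282). Its count takes any peak within 1 kb of either gene end, not only one at that promoter. These counts did not pass the threshold after adjustment.

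By cluster, the share of gene-samples among the strongest peaks was 40.3% in DMSO and 59.7% in FHT-1015 samples at the large chromosome 1 cluster, 61.9% and 95.2% at H2AC25 and H2BC26, and 25.7% and 51.4% at chr6:27132316-27147562. It was 4.76% and 18.2% in the largest chromosome 6 cluster and 5.36% and 13.4% at chr6:27807479-27893891. By family it was 22.1% and 42.9% for H2A, 16.7% and 33.3% for H2B, 7.69% and 20.1% for H3, 10.5% and 17.3% for H4 and 3.17% and 14.3% for H1. Neighbouring pairs that share a peak are counted for both genes in these shares. Genes absent from the strongest peaks of all 3 DMSO samples and present in all 3 FHT-1015 samples of a line numbered 4 in 22RV1 (H2AC18, H2AC19, H2BC11 and H2AC11), 4 in MV411 (H2AC25, H2BC26, H3C1 and H4C1), 3 in A375 (H3C1, H4C1 and H1-2), 3 in 92-1 (H3C14, H2AC20 and H2AC21), 2 in RD (H2AC19 and H3C15), 1 in DU4475 (H2BC5) and none in HCT116. Over all genes the share that did so was 2.74% in 22RV1, 4.74% in MV411, 0.976% in A375, 0.531% in 92-1, 0.686% in RD, 0.155% in DU4475 and 0.401% in HCT116. No histone gene did the reverse in any line, against 0.105% to 0.841% of all genes.

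On the gene percentile, 2 of the 68 genes were higher with FHT-1015 over the 7 lines in limma (adjusted p below 0.05), against 1.02% of all genes, and 0 were lower, against 2.57%. The 2 genes are H2AC20 and H2AC21, which have the same strongest peak in each sample and so count as 1 measurement. The count was 2 to 9 with 1 sample left out (9 without replicate 1 of 92-1 with FHT-1015, where 3.18% of all genes were higher, and 6 without replicate 2 of 92-1 with DMSO), and 5 without 92-1. The share over all genes also moved between settings, so these counts are not read as an excess of histone genes. At an unadjusted p below 0.05, 16 were higher (8.14% of all genes) and 0 lower (9.26%). The difference was above 0 at 57 of 68 genes, against 53.7% of all genes, and its median was 3.38 percentile points, against 0.343 over all genes and 3.15 over the ribosomal protein genes, of which 60 of 78 were above 0. An exact stratified rank-sum test gave 3 higher genes, H2BC21 being the third (adjusted p = 0.0167), and 21 at an unadjusted p below 0.05 (10.5% of all genes). It gave 0 lower genes at either level (1.52% and 6.46% of all genes).

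H2AC20 and H2AC21, at the end of the chromosome 1 cluster, passed this test. Their value is that of the stronger of 2 peaks, so in 92-1 and MV411 it compares different peaks between some of the samples. H2AC20 encodes a replication-dependent H2A protein, and the gene lies at chr1:149886918-149887411 on the plus strand. Its gene percentiles with DMSO and then with FHT-1015 were 68.0, 69.0 and 61.5 against 77.5, 96.7 and 87.9 in 92-1. They were 92.2, 84.1 and 87.0 against 92.8, 97.8 and 97.3 in A375. In MV411 they were 59.0, 56.8 and 54.8 against 69.6, 66.5 and 70.0.
In these 3 lines all FHT-1015 samples lay above all DMSO samples in the H2AC20 value. At H2BC21, which lies out of reach of the peak by the start of H2AC21, the MV411 groups overlapped. The 92-1 groups overlapped there too (68.0, 69.0 and 13.3 with DMSO against 62.3, 96.7 and 87.9 with FHT-1015). In DU4475 the H2AC20 values were 95.7, 96.6 and 94.8 against 97.4, 98.2 and 98.2. In HCT116 they were 64.4, 48.3 and 57.9 against 62.2, 68.9 and 62.6. In 22RV1 they were 71.9, 78.6 and 79.2 against 79.8, 79.3 and 79.0, and in RD 75.8, 73.5 and 71.3 against 76.8, 72.6 and 80.3.
The groups were apart in DU4475 too, with both near the top of the scale, and overlapped in HCT116, 22RV1 and RD. The deposited fold enrichment of the stronger peak lay between 4.13 and 16.5 over the 42 samples. In 92-1 it was 7.97, 5.98 and 4.13 with DMSO against 8.31, 6.78 and 4.24 with FHT-1015. Replicates 2 and 3 of 92-1 with FHT-1015 are the lists with 2037 and 1412 strict peaks, in which weak peaks take high ranks. The mean difference over lines was 8.15 percentile points (SE 1.56, adjusted p = 0.0014 in limma), and the mean was higher with FHT-1015 in 7 of 7 lines. The call was lost when only summits within 500 bp counted (6.37 points, adjusted p = 0.0613), with strict peaks alone (8.38, 0.0773), with summits within 300 bp of the start (7.94, 0.128), and within the lines with and without the word small in their peak names (10.9, 0.0572; 4.51, 0.137).

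**Figure D4:**
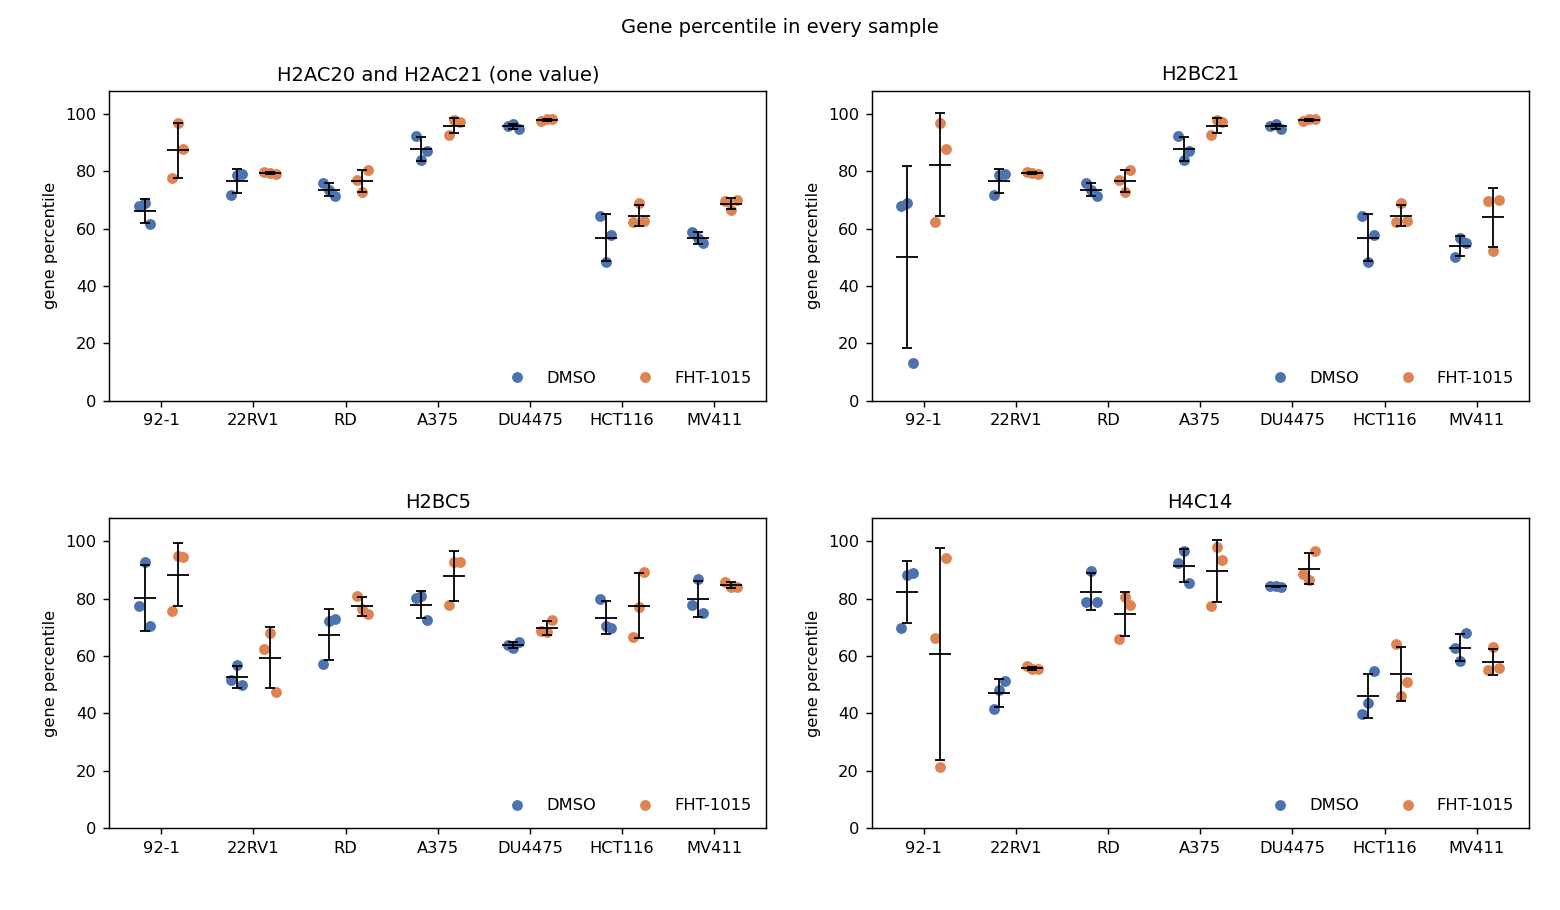
Gene percentile (0 to 100) of 4 histone genes in every sample, by line, with bars for the mean ± SD of 3 samples. H2AC20 means are higher with FHT-1015 than with DMSO in each line, H2BC21 has 1 low DMSO sample in 92-1 (13.3), and H4C14 has means lower with FHT-1015 in 4 of 7 lines.

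H2BC21, the H2B gene that starts on the other side of the peak upstream of H2AC20, had a difference of 9.48 points (SE 3.11) that did not pass (adjusted p = 0.0816 in limma). It had the same strongest peak as H2AC20 in 37 of the 42 samples. In MV411 its percentiles were 50.0, 56.7 and 54.8 with DMSO against 69.6, 52.2 and 70.0 with FHT-1015. In replicate 3 of 92-1 with DMSO it had no deposited peak and stood at 13.3. Without replicate 1 or 2 of 92-1 with DMSO, or replicate 1 with FHT-1015, its adjusted p was 0.0323, 0.0301 and 0.0160, respectively. H2BC5 and H2AC6 were named outside the naming rules, with their values seen. H2BC5 had a difference of 7.10 points (SE 2.30, adjusted p = 0.0770 in limma) and was higher in 7 of 7 lines. H2AC6 had 9.23 (SE 3.07, adjusted p = 0.0859), higher in 6 of 7. The H2BC5 value was in most samples that of a peak near the far end of the gene. Within 300 bp of the start the differences were 1.11 at H2BC5 (adjusted p = 0.876 in limma) and 6.71 at H2AC6 (0.258). H4C14 had -1.94 (SE 3.47, adjusted p = 0.821). With only summits within 300 bp of the start of a stranded gene, 1 of the 63 histone genes passed: H3C8, at 6.72 points (SE 1.75, adjusted p = 0.0300), against 0.582% of all genes. H3C8 was the H3 gene with the lowest percentile and had a deposited peak in 19 of 42 samples.

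By family, the median difference over lines was 4.99 percentile points for H2A (above 0 at 17 of 17 genes), 3.82 for H3 (11 of 13), 3.22 for H2B (15 of 18), 2.45 for H1 (4 of 6) and 0.412 for H4 (10 of 14). By cluster it was 5.28 in the large chromosome 1 cluster (8 of 11), 4.06 in the largest chromosome 6 cluster (26 of 32), 2.63 at chr6:27807479-27893891 (15 of 16) and 1.91 at chr6:27132316-27147562 (4 of 5). The pairs H2AC25 with H2BC26 and H2AC1 with H2BC1 had 4.25 and 4.83. Families and clusters were not tested against each other.

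Line by line, groups that do not overlap were counted among genes with a deposited peak in all 6 samples of the line. In DU4475, 16 of 53 histone genes had all FHT-1015 samples above all DMSO samples, against 6.58% of such genes over the genome, and 0 the reverse (7.15%). In 22RV1 the counts were 18 of 53 (15.1%) and 0 (13.6%), and in A375 13 of 54 (8.23%) and 0 (8.48%). In RD they were 9 of 53 (10%) and 1, H4C3 (9.74%).
These lines had more histone genes apart upwards than downwards. Genes that share a peak, such as H2BC8 and H2AC8 in DU4475, are counted for each gene, so these counts are not of separate measurements. MV411 had 5 of 62 (12.4%) higher, H2AC20, H2AC21, H4C3, H2BC13 and H2AC13, and 2 lower, H1-4 and H2BC10 (11.4%), shares that are below the background in both directions. HCT116 had 0 of 35 higher (5.1%) and 4 lower, H2BC18, H3C13, H2AC18 and H3C15 (5.72%). In 92-1, where 25 histone genes had a peak in all 6 samples, 2 were higher, H2AC20 and H2AC21 (6.75%), and 0 lower (6.19%).

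In the limma fit of single lines, 15 calls were made, all in 92-1. There 12 histone genes were higher (8.59% of all genes) and 3 lower (9.33%), and no histone gene was called in the other 6 lines, where 2.66% of all genes were called in at least 1 line. Fitted without 92-1, the other 6 lines gave 7 calls over the 68 histone genes, against 2321 calls over all 19970 genes. In both counts a gene could be called in each of the 6 lines, so the 7 are not read as an excess. With 1 sample left out the calls numbered 8 to 17 (8 without replicate 2 of 92-1 with DMSO, 9 without replicate 3 of 92-1 with FHT-1015). The largest differences were 37.9 points at H4C7 (adjusted p = 0.0017), 32.2 at H2BC21 (0.0065) and -30.0 at both H2BC13 and H2AC13 (0.0235). The H4C7 values were 10.1, 11.0 and 13.3 with DMSO against 11.8, 73.3 and 63.0 with FHT-1015, and only the last 2 samples had a peak, with fold enrichments of 2.90 and 2.83. These are the 2 samples with the fewest strict peaks, in which weak peaks take high ranks and genes with no peak stand at 21.1 and 23.0, so calls in this line on genes with few peaks rest on them. The H2BC13 values were 60.4, 69.2 and 75.8 against 47.9, 44.3 and 23.0.
H1-1, open in 92-1 alone among the DMSO lines, had 31.8, 89.2 and 23.0 with FHT-1015 there against 74.5, 76.6 and 77.0, a difference of -28.1 (adjusted p = 0.0137 in limma), and 1 of the 3 FHT-1015 samples was above all DMSO samples. The effect of FHT-1015 differed between lines at 0 histone genes after adjustment, against 2.82% of all genes, and at 8 at an unadjusted p below 0.05 (16.4% of all genes). The adjusted count was 5 without replicate 1 of 92-1 with FHT-1015 (13.3% of all genes), 2 without replicate 2 of that group, and 2 without 92-1. The share over all genes moved too, so these counts are not read as an excess of histone genes.

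Genes that serve the histone clusters were read against the same background, 1.02% of all genes higher and 2.57% lower over the lines. Of 21 genes of the histone locus body and of histone messenger RNA processing, 1 was higher: POU2F1, which encodes the octamer-binding factor OCT1, at 5.69 points (SE 1.60, adjusted p = 0.0373). Of 18 histone chaperone genes, 1 was higher: RBBP4, a histone-binding subunit of several chromatin complexes, at 6.55 (SE 1.66, adjusted p = 0.0190). None of 12 replication-independent histone genes and none of 20 S phase genes was called in limma, and no gene of these 4 lists was lower. The median differences were 0.271, 0.989, 3.06 and 0.453 points for the 4 lists in this order. Among the 78 ribosomal protein genes, 4 were higher and 0 lower, the 3 largest being RPL12 (11.9 points), RPS24 (11.1) and RPS15 (10.8).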

How the data were processed

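The 42 ATAC-seq samples were taken as the labels give them: 7 lines, FHT-1015 or DMSO, 3 replicates. Per the submitters' processing notes, the genome was hg38 and the tools were Bowtie2, Picard, MACS2, limma and HOMER, with roles and versions not given in the sources used here. Each sample has its own peak list, so replicates were not pooled. Per the form of the deposited lists, a peak carries a fold enrichment (a ratio), a −log10 p and a −log10 q, all the authors' values, which served here for ranking, filtering and description inside 1 list only. Peaks were called at a lenient threshold, and depth is unknown.

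Genes were those of RefSeq GRCh38.p14, and strands for the gene start came from RefSeq promoter entries (63 of 68 histone genes). Summits within 1000 bp of a gene end were given to the gene. Gene percentiles were fitted with limma 3.58.1 (trend) in R 4.3.3 on 14 group means over 42 samples, with Benjamini-Hochberg adjustment over 19970 genes at 0.05. Calls were tested with an exact stratified test (line as stratum, two-sided) in Python 3.11.15 with numpy 2.4.6 and scipy 1.17.1. A 3 against 3 exact test of 1 line cannot go below p = 0.1. Both tests were checked on simulated data. Histone clusters are neighbours less than 200 kb apart.

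Named genes were those called over lines, the highest and lowest of each family with DMSO, the testis genes, the 5 with the widest range over DMSO lines, up to 3 per line among those called there, and up to 3 per comparison list. Some others, such as H2BC5 and H2AC6, were named outside these rules with their values seen. The histone genes, the lists (histone locus body, chaperones, replication-independent histones, S phase, ribosomal proteins, tissue markers) and the tests were chosen with earlier results of these data known. Alternatives were a 500 bp window, strict peaks only, normal scores, ranking by fold, a filter on genes with few peaks, a replicate block, subsets of lines and each sample left out in turn. The 300 bp window at the start, the count among the 10000 strongest peaks with its alternatives, and the limit of non-overlap counts to genes with a peak in all 6 samples were chosen after seeing the data. Genome and protein sequences were not used here.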

Additional observations from a re-analysis of the deposited data

How the results depend on the processing

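Histone genes higher over lines numbered 1 with summits within 500 bp, 0 with strict peaks only, 4 among genes with a peak in at least 21 samples, 1 with summits within 300 bp of the start (chosen after seeing the data), 5 without 92-1, and 0 and 1 in the lines with and without the word small in their peak names. Leaving out 1 sample gave 2 to 9, with 9 without replicate 1 of 92-1 with FHT-1015 and 6 without replicate 2 of 92-1 with DMSO. Lower genes numbered 0 to 1 when 1 sample was left out, with 1 without replicate 2 of 92-1 with FHT-1015. Calls in single lines numbered 7 without 92-1, 3 and 1 in the lines with and without small, and 8 to 17 with 1 sample left out, with 8 without replicate 2 of 92-1 with DMSO and 9 without replicate 3 with FHT-1015. Effects that differ between lines numbered 1 at 500 bp, 1 at 300 bp of the start, 2 without 92-1, and 0 to 5 with 1 sample left out, with 5 without replicate 1 and 2 without replicate 2 of 92-1 with FHT-1015. DMSO lines differed at 29 and 27 genes in the lines with and without small, and at 44 to 50 with 1 sample left out. The mean difference in the count among the strongest peaks was 3.33 genes with 5000 peaks and 11.9 with 20000 peaks, against 9.76. It was 3.90 for genes at or above the percentile of 75 and 5.48 for distinct peaks. With summits within 300 bp of the start it was 7 genes, and with 1 sample left out 9.33 to 10.02. No strict peak was called lost or gained under any alternative run. These counts are given without the shares over all genes, which also differed between settings where they are given above. They show how stable a count was and not an excess of histone genes. The causes of these changes were not tested.

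With the replicate number as a block, 2 histone genes were higher over lines and 14 calls were made in single lines, so no call over lines changed. The numbers did not pair the samples: over 21 same-numbered pairs the correlation of deviations from group means ran from -0.039 to 0.156, and 2 exceeded 0.1. The block could not be fitted for differences between DMSO lines. The lists give no depth, so a weak peak missing from a list was not detected at an unknown depth. H2AC21 had 2.25 points at 500 bp (adjusted p = 0.771) and 3.19 at 300 bp of the start (0.570), and H2BC21 passed with normal scores (adjusted p = 0.0188), with the filter on genes with few peaks (0.0387) and without 92-1 (0.0310).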
